A study of Mus musculus with 15 samples.

Results

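The levels of 10 angiogenic and mitogenic genes were followed in Mouse Embryonic Fibroblasts (MEFs) exposed to 4 cytokines. They were the VEGF ligands Vegfa, Vegfb and Vegfc, the angiopoietins Angpt1 and Angpt2, the angiopoietin-like gene Angptl4, the PDGF ligands Pdgfa and Pdgfb, and the PDGF receptors Pdgfra and Pdgfrb. A probe belonged to a gene when its accession in the scanner file was a RefSeq transcript of that gene. All 10 genes, of 23462 genes named on the array, had a probe, and they held 17 probes in all. Each passed the filter on dim probes, which asked for a signal well above background on all arrays of 1 group or more, and the Pdgfb probe passed through its TNFα arrays alone. Gene expression was measured on 15 one-color arrays, 3 for each of 5 groups. The cells were the Balb/c/3T3 clone A31, an established fibroblast line that is a single clone. Controls received no cytokine, and the other groups received TNFα at 10 ng/ml, TGFß1 at 5 ng/ml, IL-1β at 1 ng/ml, or IL-6 at 20 ng/ml together with its soluble receptor sIL-6Rα at 25 ng/ml. The labels give a culture of 24 or 72 h for all groups, and the study's methods give 24 h for the arrays of TNFα and TGFß1. The exposure time of the IL-1β and IL-6 arrays is not given in the sources used here. An array is named by its group and its label number. The study describes its TNFα, TGFß1 and control arrays as 3 independent experiments. The labels do not say which arrays belong to which experiment, nor how the IL-1β and IL-6 arrays were replicated, and for those the spread between arrays may be technical.

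VEGF ligands act on receptor tyrosine kinases of endothelial cells, where Vegfa drives the sprouting of blood vessels and Vegfc that of lymphatic vessels. Angpt1 activates the endothelial receptor Tek and stabilizes vessels, and Angpt2 mostly opposes it. PDGF ligands are dimers that make fibroblasts, pericytes and smooth muscle cells divide and migrate, the A chain binding Pdgfra and the B chain binding both receptors. Fibroblasts carry both PDGF receptors and secrete VEGF, so they can be a source of these signals and a target of PDGF.

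The sequences before the start sites are printed for 4 genes that were called with TGFß1 under every alternative tried. These are the 250 bases upstream of a start from the RefSeq promoter table (build GRCm38.p6), 5′ to 3′, for Vegfa, Vegfc, Pdgfa and Pdgfra. Capitals mark matches to any of 7 motifs searched on both strands. In the first 3 sequences every capital stretch is a match to the Sp1 motif GGGCGG, read on either strand, and the Pdgfra sequence holds no match.
Vegfa (chr17:46032378-46032627, minus strand): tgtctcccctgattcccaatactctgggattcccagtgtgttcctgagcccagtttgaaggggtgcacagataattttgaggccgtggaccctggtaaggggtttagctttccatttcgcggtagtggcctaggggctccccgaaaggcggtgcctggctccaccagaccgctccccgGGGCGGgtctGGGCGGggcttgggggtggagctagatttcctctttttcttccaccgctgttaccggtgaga
Vegfc (chr8:54077282-54077531, plus strand): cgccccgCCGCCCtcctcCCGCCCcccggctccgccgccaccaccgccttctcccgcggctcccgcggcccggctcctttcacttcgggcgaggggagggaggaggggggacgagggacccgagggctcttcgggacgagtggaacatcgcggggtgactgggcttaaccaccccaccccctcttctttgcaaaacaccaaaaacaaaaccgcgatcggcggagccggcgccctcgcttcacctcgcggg
Pdgfa (chr5:138994945-138995194, minus strand): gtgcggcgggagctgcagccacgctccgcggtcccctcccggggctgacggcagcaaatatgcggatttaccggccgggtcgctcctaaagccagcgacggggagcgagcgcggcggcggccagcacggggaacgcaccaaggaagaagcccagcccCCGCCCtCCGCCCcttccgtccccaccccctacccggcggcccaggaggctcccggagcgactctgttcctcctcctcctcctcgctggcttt
Pdgfra (chr5:75152001-75152250, plus strand): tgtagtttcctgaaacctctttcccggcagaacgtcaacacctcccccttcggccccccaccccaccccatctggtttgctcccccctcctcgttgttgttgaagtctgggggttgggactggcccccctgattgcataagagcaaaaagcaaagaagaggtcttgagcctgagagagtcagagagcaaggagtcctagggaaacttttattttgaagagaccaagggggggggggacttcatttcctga
The search covered 7 start sites of 5 of the 10 genes. Vegfa and Pdgfa had a second start, and Vegfb had 1. The Sp1 letters were found before 6 of the 7 starts, and in 32.7% of all 32851 promoters of the same length. Before the starts of Vegfc, Pdgfa and Pdgfra, and the first of Vegfa, no match was found to the hypoxia response core ACGTG, to the AP-1 motif TGANTCA, to the SMAD motifs GTCTAGAC and CAGACA, to the NF-kB motif GGGANTTTC or to the nuclear receptor motif AGGTCA. Over all promoters these motifs were found in 16.6%, 6.75%, 0.167%, 17.1%, 0.941% and 14% respectively. The second Vegfa start held 1 ACGTG and 1 CAGACA match, both on the strand opposite to the gene, and the Vegfb start held 2 AGGTCA matches. A match describes these letters only and does not show binding, and no match says only that the letters are not in this window.

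Expression is given as the log2 processed signal minus the 75th percentile of the array, so that 1 unit is a doubling, and a value of 0 lies at that percentile. Each probe has its own brightness, so levels are compared between groups and not between genes. Differences were tested by limma on all 15 arrays, over 29333 probes. The criteria for a call were a Benjamini-Hochberg q-value under 0.05 and a fold-change, up or down, of 1.5 or more. Where a gene had several probes, its brightest probe stands for it. All comparisons with control share the same 3 control arrays. The arrays lay on 2 slides, 8 on slide 1 and 7 on slide 2, and every slide held arrays of all 5 groups. Slide 2 held 2 of the 3 arrays of TNFα and of TGFß1, but 1 of 3 of control, IL-1β and IL-6. Slide and treatment were thus partly confounded in comparisons of TNFα or TGFß1 with the other groups. Label numbers 1 to 5, 6 to 10 and 11 to 15 form 3 runs, each with 1 array of every group. In whole-culture RNA, a change in the number of expressing cells cannot be told apart from a change in RNA per cell.

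TGFß1 changed the largest number of these genes. Compared to controls, Vegfa, Vegfc, Pdgfa and Pdgfrb were higher and Pdgfra and Vegfb were lower in MEFs treated by TGFß1, 6 of 10 genes. Over all probes tested, 7.17% were called higher and 10.8% lower. With TNFα 3 genes were called higher, Vegfa, Vegfc and Pdgfb, and none lower, where 4.12% of all probes were called higher and 6.06% lower. Pdgfb was tested only because all TNFα arrays measured it, and the count was 2 over probes well above background on all arrays. With IL-1β none of the 10 genes was called, and 0.245% of all probes were called higher and 0.00682% lower. IL-6 with sIL-6Rα gave no call among the 10 genes either, with 0.0648% of all probes called higher and 0% lower. At an unadjusted limma p below 0.05 the counts were 0 of 10 genes with IL-1β and 2 of 10 with IL-6. The median log2 fold-change of the 10 genes was 0.12 with TNFα, 0.45 with TGFß1, 0.16 with IL-1β and 0.04 with IL-6, while that of all probes was 0.04, 0.05, 0 and 0.

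**Figure D1:**
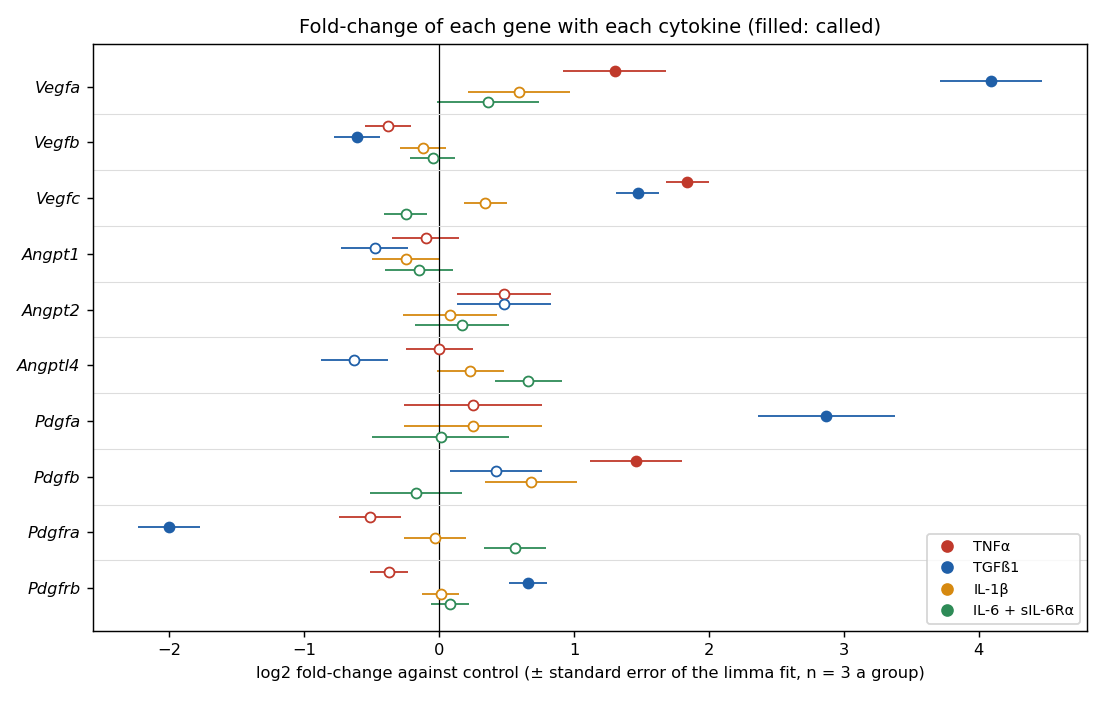
Log2 fold-change of the 10 genes (rows) against control with each of the 4 cytokines (colours), with the standard error of the limma fit and 3 arrays a group. Filled points were called. Vegfa and Pdgfa with TGFß1 lie farthest to the right, at 4.09 and 2.87, and Pdgfra with TGFß1 farthest to the left, at -2.00.

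The cells answered each cytokine at genes known to respond to it. Smad7, a target and feedback inhibitor of TGFß signalling, was higher by 2 on the log2 scale with TGFß1. Tnfaip3, a target of NF-kB, was higher by 3.84 with TNFα and by 1.34 with IL-1β. Socs3, a target of STAT3, was higher by 2.39 with IL-6. Of 9 fibroblast markers, all 9 were well above background on all 15 arrays, and some of them changed. With TNFα 4 were lower (Col1a1, Col1a2, Col3a1 and Thy1, from -0.59 to -2.17) and Dcn was higher (1.91), and with TGFß1 Dcn (-1.82) and S100a4 (-0.75) were lower. Among 7 markers of mural cells, which carry PDGF receptors as well, 4 were tested. Rgs5 was lower with TNFα (-1.67, limma q = 0.000159) and, with no TGFß1 array well above background, at least 3.91-fold lower with TGFß1 (q = 1.14e-05). Cspg4, which passed the filter through its TGFß1 arrays alone, was at least 4.49-fold higher there, and Kcnj8, Abcc9 and Myh11 were well above background on no array. Mcam and Notch3 were well above background on all 15 arrays and were called with no cytokine. Mcam was at 0.60 with TNFα and 0.67 with TGFß1, and Notch3 at -0.72 and -0.95. The part of these marker changes in the values of the 10 genes was not tested. Of 9 endothelial markers, 7 were well above background on no array, among them Cdh5, Kdr, Tek and Tie1, and Pecam1 was measured on all 15 arrays at a mean of -4.04 in controls and -3.85 to -4.08 in treated cells. Among 6 leukocyte markers, Ptprc and Adgre1 were well above background on no array and the other 4 on all 15, with none called in any comparison with control.

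**Figure D2:**
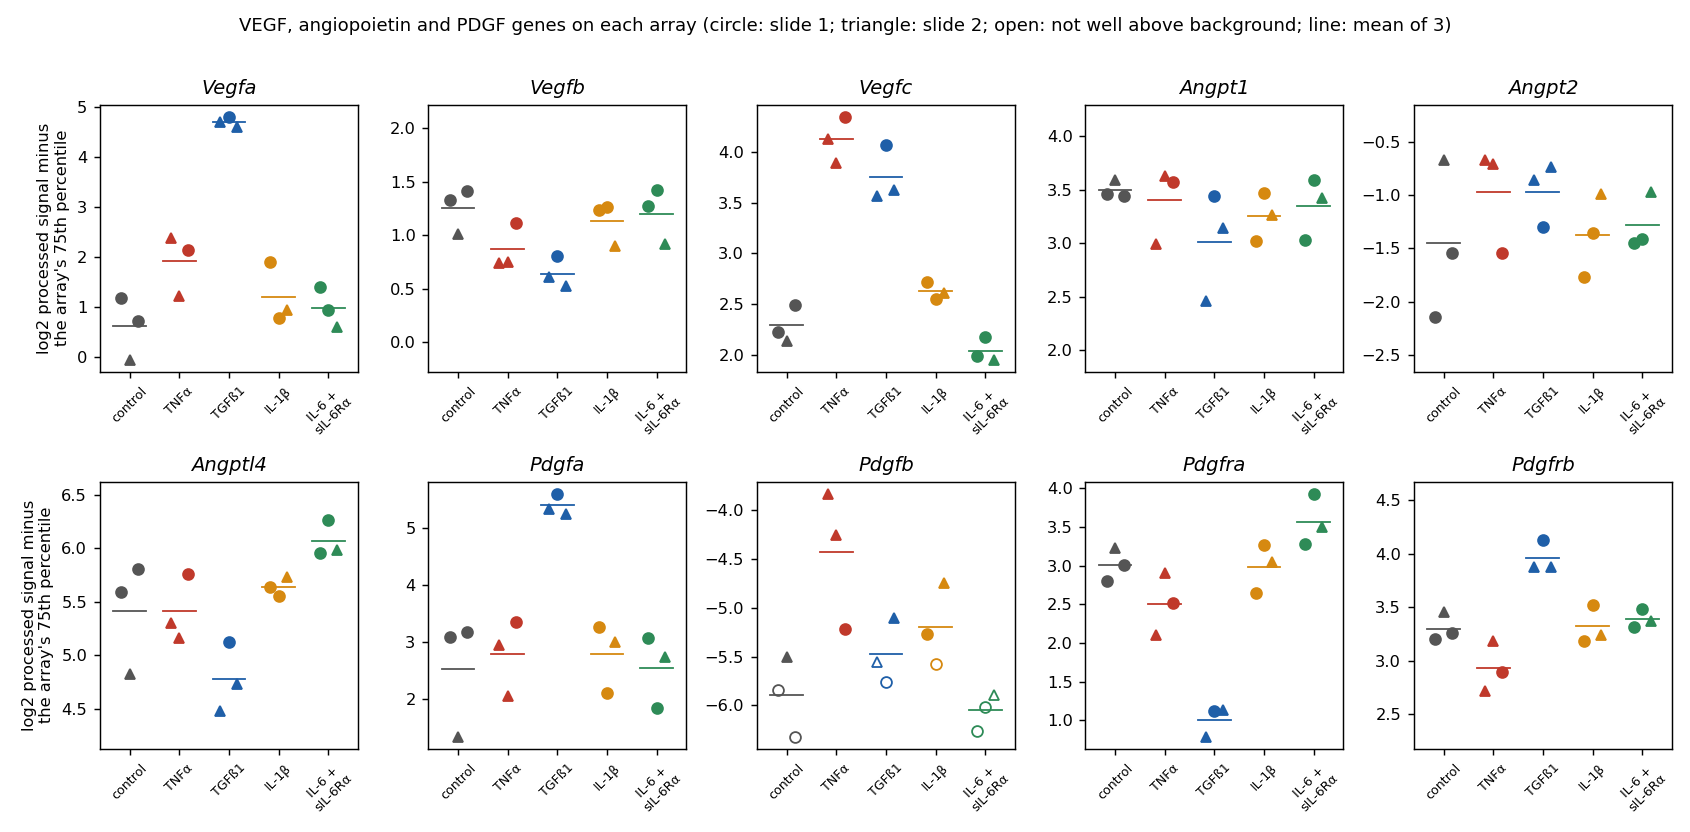
Log2 processed signal minus the array's 75th percentile (vertical axis, own scale per gene) on each of the 15 arrays, for the 10 genes and the 5 groups. Circles are arrays of slide 1, triangles arrays of slide 2, open symbols values not well above background, and lines the mean of 3 arrays. The 3 TGFß1 arrays lie above all others for Vegfa, Pdgfa and Pdgfrb, and below all others for Pdgfra.

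Vegfa, the main angiogenic VEGF, showed the largest difference of the 10 genes. In controls its log2 level was 1.18, -0.06 and 0.71 on arrays 1, 6 and 11. In MEFs treated by TGFß1 it was 4.70, 4.8 and 4.6 on arrays 2, 7 and 12. The 3 TGFß1 arrays lay close together and far above every other array. The mean went from 0.61 ± 0.63 (SD, n = 3) to 4.70 ± 0.10, a log2 fold-change of 4.09 with a standard error of 0.38, or 17-fold (limma q = 2.03e-05). Within slide 1 the difference was 3.85 and within slide 2 it was 4.71.

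With TNFα, Vegfa was at 2.38, 1.21 and 2.13 on arrays 4, 9 and 14. All 3 values lay above the highest control, the lowest of them by a small margin. The log2 fold-change was 1.30 with a standard error of 0.38, or 2.46-fold (limma q = 0.0437). This call was close to the limit and was lost without control 6 (0.96, q = 0.14), control 11 (1.35, q = 0.0878), TNFα 4 (1.06, q = 0.177) or TNFα 14 (1.18, q = 0.116). Within slides the difference was 1.18 and 1.86, and within the 3 runs it was 1.20, 1.27 and 1.42. IL-1β gave 1.89, 0.77 and 0.94, and IL-6 gave 1.39, 0.93 and 0.59, both overlapping the controls.

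The order of the group means for Vegfa was TGFß1, TNFα, IL-1β, IL-6 and control. TNFα against TGFß1 gave -2.79 (limma q = 0.000285). The next neighbours, TNFα and IL-1β, differed by 0.71, which did not pass the test (q = 0.352). With slide and run as blocks, this difference was 0.87 (q = 0.00376), and that between TNFα and IL-6 went from 0.94 (q = 0.156) to 1.10 (q = 0.000753). IL-1β stood 0.23 above IL-6 and IL-6 0.36 above control, neither of which passed.

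Vegfa had 4 probes, and each was called higher with TGFß1. The 3 brightest gave 4.09, 4.02 and 4.04 on the log2 scale, and the dimmest gave 1.92. With TNFα the 4 probes gave 1.30, 1.39, 1.18 and 1.12, of which the first 2 were called. The dimmest probe thus gave less than the others with TGFß1 and a similar value with TNFα.

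**Figure D3:**
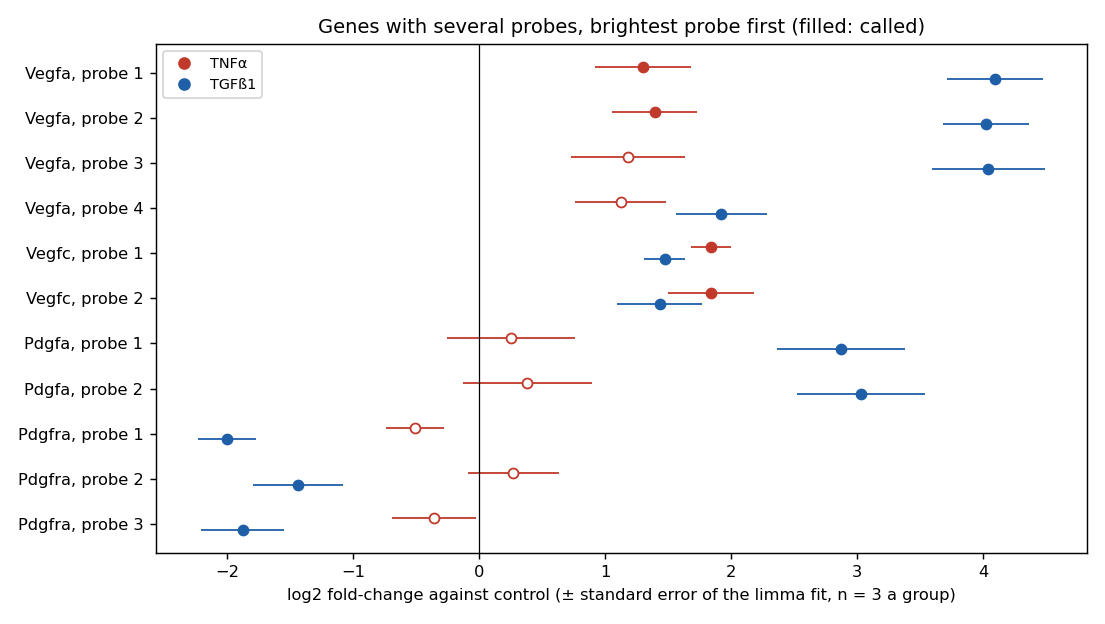
Log2 fold-change against control with TNFα and TGFß1 for each probe of the 4 genes with several probes, with the standard error of the limma fit (3 arrays a group). Filled points were called. All probes of a gene lie on the same side of 0 with TGFß1, and the fourth Vegfa probe, at 1.92, lies below the other 3.

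Vegfc, the lymphatic growth factor, was higher with both TNFα and TGFß1. Controls were at 2.22, 2.14 and 2.49. TNFα arrays were at 4.13, 3.89 and 4.35 and TGFß1 arrays at 3.57, 4.07 and 3.63. Both treated groups lay wholly above controls, IL-1β and IL-6, and overlapped each other. The log2 fold-change was 1.84 ± 0.16 (SE) with TNFα, or 3.58-fold (limma q = 1.7e-05), and 1.47 ± 0.16 with TGFß1, or 2.77-fold (q = 6.26e-05). The direct difference of TNFα and TGFß1 was 0.37 and did not pass (q = 0.157). The second Vegfc probe gave 1.84 and 1.43, both called.

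With IL-1β the 3 arrays, at 2.72, 2.55 and 2.61, all lay above the controls, by 0.34 on average, which was not called (q = 1, unadjusted p = 0.0531). IL-6 arrays were at 1.99, 2.17 and 1.95. Vegfc was therefore ordered as TNFα, TGFß1, IL-1β, control and IL-6. The step from TGFß1 down to IL-1β was 1.13 (limma q = 0.000412). On the second Vegfc probe this step was 0.95 and was not called (q = 0.0634), and the IL-1β arrays overlapped the controls. IL-1β against IL-6 was 0.59 (q = 0.245), and this difference was called with slide and run as blocks (0.59, q = 0.0201).

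Vegfb, a VEGF ligand that binds Flt1, was the one of these 3 VEGF ligands that was lower with TGFß1. Controls were at 1.33, 1.01 and 1.41, TGFß1 arrays at 0.61, 0.80 and 0.52. The groups did not overlap. Its log2 fold-change was -0.61 with a standard error of 0.17, or 1.52-fold lower (limma q = 0.0205), which is just past the fold-change limit. With slide as a block it was -0.49 (q = 0.000675), so that the q-value passed and the fold-change did not, and the same held with slide and run as blocks (-0.49, q = 0.000287). The call was also lost on leaving out control 1 (-0.57, q = 0.0565), control 11 (-0.53, q = 0.0725), TGFß1 2 (-0.59, q = 0.0644) or TGFß1 12 (-0.55, q = 0.0763). TNFα arrays, at 0.74, 0.75 and 1.11, gave -0.38 (q = 0.169), and the means with IL-1β and IL-6 were 1.13 and 1.20. The single probe leaves no second reading of Vegfb.

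The angiopoietins were not called in any of the 10 comparisons. Angpt1, the Tek agonist, had group means of 3.50 in controls, 3.40 with TNFα, 3.01 with TGFß1, 3.25 with IL-1β and 3.35 with IL-6. Its 3 TGFß1 arrays, at 2.46, 3.44 and 3.14, spread over more than the distance to the controls (-0.48, q = 0.18). Angpt2, the antagonist, had means of -1.45, -0.97, -0.97, -1.37 and -1.28 in the same order. The controls alone ranged from -2.14 to -0.67, and the difference of 0.48 with TNFα or TGFß1 did not pass (q = 0.427 and 0.35).

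Angptl4, a secreted inhibitor of lipoprotein lipase that responds to fatty acids, hypoxia and TGFß in other settings, separated TGFß1 from the interleukins. Controls were at 5.59, 4.82 and 5.81, and TGFß1 arrays at 4.48, 5.12 and 4.73. The groups overlapped, and the difference of -0.63 with a standard error of 0.25 was not called (limma q = 0.0809). It was called without control 6 (-0.92, q = 0.0114) and without TGFß1 7 (-0.81, q = 0.049). Within runs the difference was -1.11, 0.30 and -1.08, so the second run went the other way.

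IL-6 with sIL-6Rα gave the highest Angptl4 values, 5.96, 6.27 and 5.98, all above every control. The difference from control was 0.66 (unadjusted p = 0.0192, q = 1) and was not called. IL-1β arrays were at 5.64, 5.55 and 5.73. Against these, TGFß1 was lower by direct comparison, with -1.29 against IL-6 (limma q = 0.00277) and -0.86 against IL-1β (q = 0.024). The latter call was lost in 5 of 6 fits that left out an array, with q-values from 0.0535 to 0.0973. TNFα, at 5.30, 5.16 and 5.76, had the control mean of 5.41. TNFα against TGFß1 was 0.63 (q = 0.112), and was called with slide and run as blocks (q = 0.00589).

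Pdgfa, the A chain of PDGF, was higher with TGFß1 and was not called with the other 3 cytokines. Control arrays 1, 6 and 11 were at 3.08, 1.33 and 3.18. TGFß1 arrays 2, 7 and 12 were at 5.34, 5.61 and 5.26. Control 6 lay far below the other controls, while the 3 TGFß1 arrays were close together. With TGFß1 the log2 fold-change was 2.87 with a standard error of 0.51, or 7.34-fold (limma q = 0.0017). Without control 6 it was 2.27 (q = 0.0052). The second Pdgfa probe gave 3.03, or 8.17-fold (q = 0.00114).

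With the other cytokines Pdgfa overlapped the controls. TNFα gave 2.95, 2.04 and 3.35, IL-1β 3.26, 2.09 and 3.00, and IL-6 3.07, 1.83 and 2.74. The differences from control were 0.25, 0.25 and 0.01, all with a standard error of 0.51, which was larger than for any other of the 10 genes. In direct comparisons TNFα against TGFß1 gave -2.63 (limma q = 0.00359), TGFß1 against IL-1β 2.62 (q = 0.00323) and TGFß1 against IL-6 2.86 (q = 0.00187).

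The array of the second run was the lowest of its group for Pdgfa in controls, TNFα, IL-1β and IL-6, but the highest with TGFß1. Vegfa showed the same in controls, TNFα, IL-1β and TGFß1, while with IL-6 the array of the third run was lowest. The low arrays were control 6 and TNFα 9 on slide 2 and IL-1β 10 and IL-6 8 on slide 1. Within the 3 runs, Pdgfa with TGFß1 differed from its control by 2.26, 4.28 and 2.08, and Vegfa by 3.52, 4.86 and 3.89. With TNFα the Pdgfa differences were -0.14, 0.71 and 0.18. What the runs share is not stated in the labels, and its part in these values was not tested.

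**Figure D4:**
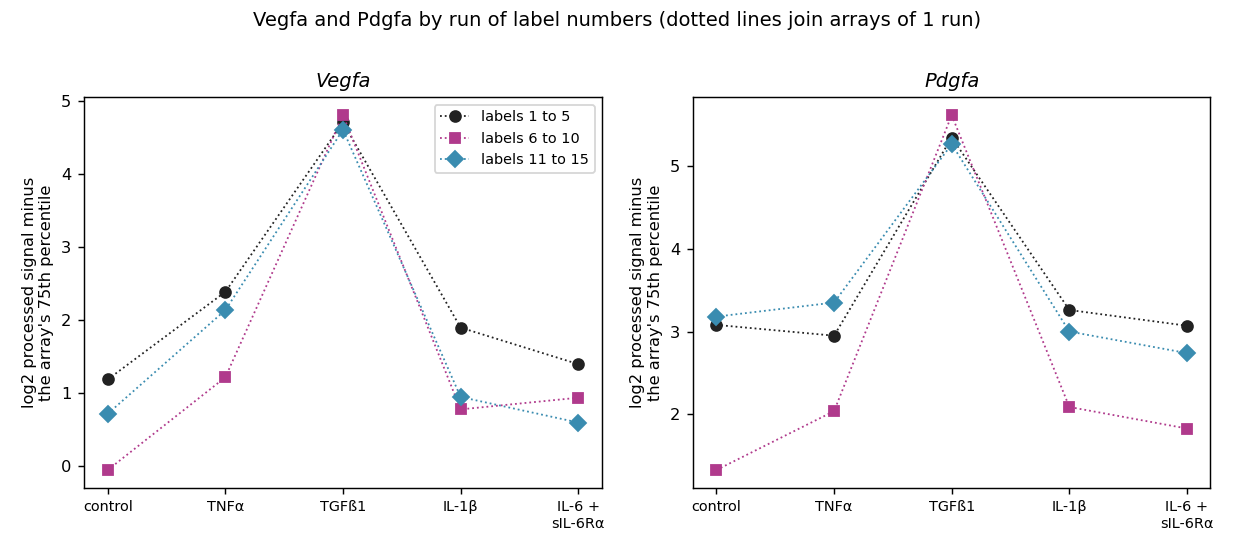
Vegfa and Pdgfa (log2 processed signal minus the array's 75th percentile) by group, with dotted lines joining the arrays of 1 run of label numbers. Arrays 6 to 10 lie low for Pdgfa in 4 groups, at 1.33 to 2.09, and reach 5.61 with TGFß1.

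Pdgfb, the B chain, which binds both PDGF receptors, was dim. It was well above background on 7 of 15 arrays, namely 1 control, all 3 TNFα, 1 TGFß1, 2 IL-1β and no IL-6 arrays. TNFα arrays were at -3.83, -4.25 and -5.22, and controls at -5.84, -5.50 and -6.32. The TNFα arrays lay above all controls. The log2 fold-change was 1.46 with a standard error of 0.34, or 2.74-fold (limma q = 0.0138), against controls of which 1 of 3 was well above background. It was 0.46 with another background correction (normexp), under the fold-change limit (q = 0.0319), and the call was lost without control 11 (1.24, q = 0.06), TNFα 4 (1.15, q = 0.0681) or TNFα 9 (1.36, q = 0.0504). Against IL-6, where no array was well above background, TNFα gave 1.62 (limma q = 0.00844), and 0.40 with normexp (q = 0.0715, not called). The probe was tested only because all TNFα arrays measured it, so this test draws on that selection. On the processed signal, without normexp, TNFα was at least 1.73-fold higher. This bound sets the mean of the TNFα arrays against the dimmest signal that was well above background on each IL-6 array, or the probe's own signal where higher. A q-value printed beside such a bound, here or for another gene, belongs to the difference without the bound. TNFα against TGFß1 was 1.04 (q = 0.0579) and was called with slide and run as blocks (q = 0.00392).

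Pdgfra, the receptor for both PDGF chains, was lower with TGFß1. Controls were at 2.80, 3.23 and 3.01, and TGFß1 arrays at 0.79, 1.12 and 1.13. The TGFß1 arrays lay below all 12 others. Its log2 fold-change was -2.00 with a standard error of 0.23, or 4.01-fold lower (limma q = 0.000105). The difference was -1.79 within slide 1 and -2.27 within slide 2, and -2.01, -2.11 and -1.89 within the runs. The other 2 Pdgfra probes gave -1.44 and -1.88, both called. The probe at -1.88 was dim and was not well above background on array TGFß1 7.

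The group means of Pdgfra were ordered as IL-6 (3.57), control (3.01), IL-1β (2.98), TNFα (2.5) and TGFß1 (1.01). The step from TNFα to TGFß1 was 1.49 (limma q = 0.000779). IL-6 arrays, at 3.28, 3.93 and 3.50, all lay above the controls (0.56, unadjusted p = 0.0346, q = 1). TNFα arrays, at 2.10, 2.90 and 2.52, overlapped them (-0.51, q = 0.185). TNFα against IL-6 gave -1.07 (q = 0.0112), and this call was lost with the mean of the 3 probes (-0.82, q = 0.078), with only the 2 groups fitted (q = 0.0672), without TNFα 4 (-0.86, q = 0.0563) and without IL-6 8 (-0.89, q = 0.0579). The other 2 Pdgfra probes gave -0.51 (q = 0.441) and -0.88 (q = 0.115) for this pair, neither called. On these probes TNFα against control was 0.27 and -0.36, and the IL-6 arrays overlapped the controls. IL-1β differed from control by -0.03.

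Pdgfrb, which binds the B chain, went the other way from Pdgfra with TGFß1. Controls were at 3.20, 3.45 and 3.26 and TGFß1 arrays at 3.88, 4.13 and 3.88. The groups did not overlap, and the spread within them was small. The log2 fold-change was 0.66 with a standard error of 0.14, or 1.58-fold (limma q = 0.00503). Under quantile normalization it was 0.53, and without TGFß1 7 it was 0.58, both under the fold-change limit. TNFα arrays, at 2.72, 3.18 and 2.89, all lay below the controls, with a mean difference of -0.37 (q = 0.11, not called). TNFα against TGFß1 gave -1.03 (q = 0.00027), or 2.04-fold lower, so that both PDGF receptors differed between TNFα and TGFß1, in opposite directions. The means with IL-1β and IL-6, 3.32 and 3.39, lay next to the control mean of 3.30.

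Of the 60 direct comparisons between cytokines (10 genes, 6 pairs), 19 were called. This includes Pdgfb, tested only because all TNFα arrays measured it, and the count was 18 over probes well above background on all arrays. TNFα against TGFß1 gave 4 calls (Vegfa, Pdgfa, Pdgfra and Pdgfrb), with 11.8% of all probes called in either direction. TNFα against IL-1β gave 1 (Vegfc; 4.83% of all probes), and TNFα against IL-6 gave 3 (Vegfc, Pdgfb and Pdgfra; 8.68%). TGFß1 against IL-1β gave 6 (Vegfa, Vegfc, Angptl4, Pdgfa, Pdgfra and Pdgfrb; 17%), and TGFß1 against IL-6 gave 5 (the same genes without Pdgfrb; 16.4%). For TGFß1 against IL-6, Pdgfrb was at 0.58 (limma q = 0.0112) and Vegfb at -0.56 (q = 0.0326). In both the q-value passed and the fold-change did not. IL-1β against IL-6 gave 0 (0.419% of all probes), with 3 of 10 genes at an unadjusted limma p below 0.05. These pairs share arrays and are not independent of each other. The Pdgfb call against IL-6 was lost with normexp (0.40, q = 0.0715), and the Pdgfrb call against IL-1β under quantile normalization (0.50), without TGFß1 7 (0.57) or without IL-1β 5 (0.58), each under the fold-change limit.

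Over 10 lists of related genes there were 52 tested genes. TNFα gave 2 calls upward and 16 downward among them, beside 4.12% and 6.06% of all probes. TGFß1 gave 8 upward and 12 downward, beside 7.17% and 10.8%. The 8 include Dusp4, which passed the filter on dim probes through its TGFß1 arrays alone. None was called with IL-1β or IL-6, where 0.245% and 0.0648% of all probes were called higher and fewer lower. These shares over all probes are given as a reference for the count of each list. The 10 genes and the lists were chosen with earlier results of these data known. Their counts use the brightest probe of a gene, while the shares run over all probes tested. A count above its share is therefore a description and not a test.

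Of 7 other VEGF ligands and receptors 4 were tested, with 1 called higher and 2 lower with TNFα and 2 lower with TGFß1. Vegfd, a second lymphatic ligand, was lower by both, at -1.25 ± 0.23 (SE) with TNFα (limma q = 0.00395) and -2.45 ± 0.23 with TGFß1 (q = 2.24e-05). Vegfd and Vegfc, both ligands of Flt4, thus moved in opposite directions. The co-receptor Nrp1 was lower by both (-0.77, q = 0.00614, and -1, q = 0.000627), and Nrp2, a co-receptor of Vegfc, was higher with TNFα (0.67, q = 0.00202) and at -0.04 with TGFß1 (q = 0.841). Flt1 was at 0.51 and 0.72, not called. The receptors Kdr and Flt4 were well above background on no array, as were the angiopoietin receptors Tek and Tie1. The ligand Angpt4 and the phosphatase Ptprb were so on 1 array each, so that none of these 4 angiopoietin genes was tested.

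Among 6 other angiopoietin-like genes 3 were tested. Angptl6 was higher with TNFα (1.13, limma q = 0.0134) and Angptl2 with TGFß1 (0.91, q = 0.0485). Pdgfc and the receptor-like Pdgfrl, the tested genes of 3 others of the PDGF family, were called in neither comparison (Pdgfc -0.42 and 0.72, Pdgfrl 0.56 and -0.82), and Pdgfd was well above background on no array.

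Of 10 secreted inhibitors of angiogenesis, all tested, 4 were lower and 0 higher with TNFα, and 3 were lower and 1 higher with TGFß1. Timp3, which blocks Vegfa from its receptor Kdr besides inhibiting metalloproteinases, was at -3.43 with TNFα and -3.38 with TGFß1 (limma q = 1.43e-05 and 1.16e-05). Adamts1 was lower with both (-2.47, q = 0.00428, and -2.83, q = 0.00101). Thbs2 was lower with TNFα (-0.98, q = 0.0208), and Sema3e, well above background on no TNFα array, was at least 2.04-fold lower (q = 4.18e-05). With TGFß1, Sema3a was lower (-1.31, q = 0.00238) and Col18a1, the precursor of endostatin, was higher (1.30, q = 0.00251). The list median was -0.42 with TNFα and -0.17 with TGFß1, against 0.04 and 0.05 over all probes.

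**Figure D5:**
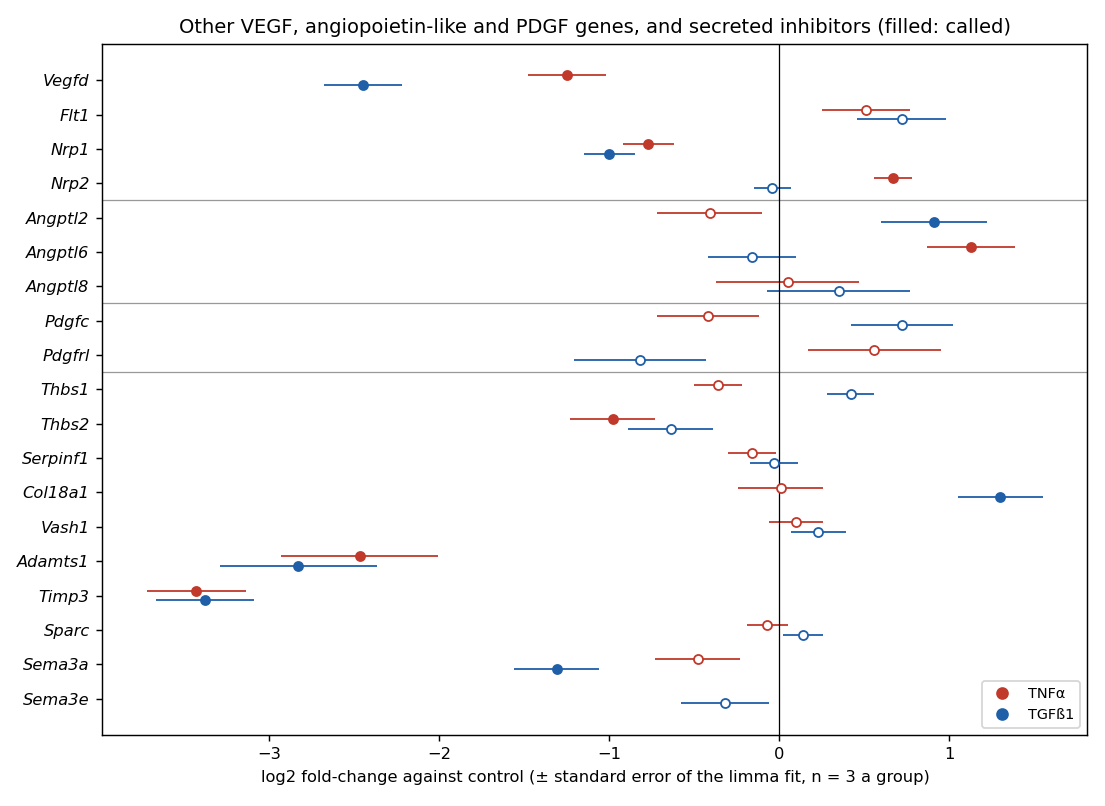
Log2 fold-change against control with TNFα and TGFß1 for the other tested VEGF, angiopoietin-like and PDGF genes and for secreted inhibitors (blocks from top to bottom), with the standard error of the limma fit (3 arrays a group). Filled points were called. Vegfd, Nrp1, Adamts1 and Timp3 were lower with both cytokines. No point is drawn for Sema3e with TNFα, which was not well above background there.

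Genes that answer to hypoxia, of which Vegfa is one, were called in both directions. Of 12 tested, 0 were higher and 4 lower with TNFα, and 2 were higher and 3 lower with TGFß1. Ddit4, an inhibitor of mTOR, and Slc2a1, a glucose transporter, were higher with TGFß1 (1.41, limma q = 1.52e-05, and 0.61, q = 0.000942). Adm, which encodes the vessel-dilating adrenomedullin, was lower (-3.11, q = 0.000384), as were Bnip3 (-0.97, q = 0.00532) and Pdk1 (-1.26, q = 0.000177). Bnip3 and Pdk1 were lower with TNFα as well (-1.12 and -1.30). Hif1a was at -0.36 with TNFα and 0.07 with TGFß1, neither called. The list median was -0.37 with TNFα and 0.05 with TGFß1.

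Around Angptl4, its target lipoprotein lipase was lower while Angptl4 itself was not called. Lpl was at -2.86 with TNFα (limma q = 0.00103) and -2.25 with TGFß1 (q = 0.00277), the 1 call among 3 tested genes of that axis. Of 8 PPAR-responsive genes tested, a class to which Angptl4 belongs, 0 were higher and 4 lower with TNFα, and 1 was higher and 2 lower with TGFß1. Cpt1a and Fabp4 were lower with both (-1.74 and -3.23 with TNFα, -1.84 and -1.5 with TGFß1), and Plin2 was lower with TNFα (-0.81, q = 0.005) and higher with TGFß1 (0.79, q = 0.00336).

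Feedback genes of receptor tyrosine kinases, the class of PDGF and VEGF receptors, were called 3 times higher and once lower with TGFß1 among 7 tested. Dusp5 was at 2.52 (limma q = 0.00252), Spred2 at 1.14 (q = 0.000264) and Spry2 at -0.84 (q = 0.0214). Spry1 (-1.08), Spred1 (0.51) and Dusp6 (-0.2) were not called with TGFß1. Dusp4, well above background on no control array, was at least 4-fold higher (q = 0.000514), and it was tested only because the TGFß1 arrays measured it. With TNFα 0 were higher and 1, Spry1, was lower (-1.71, q = 0.0232).

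Over the 15 arrays, the log2 levels of some of the 10 genes ran together, as a description of arrays that share treatments, slides and runs. Pearson's r was 0.932 for Vegfa and Pdgfa, -0.947 for Vegfa and Pdgfra and -0.898 for Pdgfa and Pdgfra. For Angptl4 and Pdgfra it was 0.771. Vegfa and Vegfc, both higher with TNFα and TGFß1, had an r of 0.676.

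For each of the 7 genes called against control, the 3 genes with the highest r over the 15 arrays were listed. Vegfa ran with Marcksl1 (0.991), Notch2 (0.989) and Nmnat2 (0.985). Pdgfa ran with Itga5 (0.982), Fpgs (0.98) and Macir (0.979). Vegfc ran with Map2k6 (0.971), Tnfaip1 (0.956) and Dgke (0.954).

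The dim Pdgfb had lower values, with Tfe3 (0.906), Cmtm3 (0.888) and Fam171b (0.884). Pdgfra ran with Ripor3 (0.985), Ifi204 (0.984) and Larp6 (0.984), and Pdgfrb with Myo1d (0.967), Enpp3 (0.954) and Itga11 (0.953). Vegfb ran with Stxbp2 (0.984), Tmem179b (0.976) and Nhej1 (0.971).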

How the data were processed

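RNA of 15 samples was labelled with Cyanine 3 and hybridized to Agilent whole mouse arrays, which the authors scanned and extracted with Feature Extraction 10.7.3.1 per the labels. The deposited scanner files give each spot's intensity as processed signal, after background subtraction, and the deposited table of the series holds the same intensity (largest difference 0). No spot was saturated. From these, control spots were left out, spots of a probe averaged, and log2 values set to the array's 75th percentile (508 to 683). Tested were the 29333 of 56605 probes that all arrays of 1 or more groups measured well above background, with limma 3.58.1 in R 4.3.3, all 5 groups in 1 fit without covariates. A gene was represented by its brightest probe. The number of arrays, 3 a group, limits the precision. Names came from RefSeq (GRCm38.p6). Alternatives were background correction by normexp (offset 50, on the median signals of the files), quantile or median scaling, the filters, slide and run as blocks, the 2 groups compared alone, no fold-change criterion, the mean of a gene's probes and leaving out each array. Run as a block without the slide and differences within runs were added after seeing the data. With the slide removed, arrays of a run deviated together (r of 0.114 to 0.671 in all 30 pairs of different groups), against 2 of 60 pairs of different runs over 0.1. Without removing it, 12 of 30 and 28 of 60 pairs were over 0.1. The deviations of the 3 arrays of a group sum to 0, so the pairs of different runs are not an independent comparison. Named are the 10 genes with all their probes, listed related genes and markers, and the 3 most similar genes of each called gene. The members and lists were chosen with earlier results of these data known.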

Additional observations from a re-analysis of the deposited data

How the results depend on the processing

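Among 100 fold-changes (10 genes, 10 comparisons), 1628 of 1690 values under the alternatives kept their call or lack of one, 35 lost a call, 27 gained one and 0 of the called values changed sign. Some values that were not called did, such as Pdgfa with TNFα, which went from 0.25 to -0.35 without control 6. Part of the agreement is fixed in advance. Without the fold-change criterion no call can be lost, and the mean of a gene's probes leaves the 6 genes with 1 probe unchanged. With IL-1β and IL-6 there was no call against control to lose. Of the calls against control, Vegfa and Pdgfb with TNFα and Vegfb and Pdgfrb with TGFß1 were lost under 1 alternative or more. So were Pdgfb and Pdgfra for TNFα against IL-6, and Angptl4 and Pdgfrb for TGFß1 against IL-1β. Vegfc with TNFα, and Vegfa, Vegfc, Pdgfa and Pdgfra with TGFß1, were called in all 11 alternatives and in all 6 fits that left out an array. The count of genes called with TNFα was 3, and 1 when only the 2 groups were fitted. On leaving out arrays in turn it was 1 to 3 with TNFα (1 without control 11 and 1 without TNFα 4), 5 to 7 with TGFß1, 0 with IL-1β, 0 with IL-6 and 17 to 21 over the pairs of cytokines, and the cause was not tested. The 19 calls over the pairs became 24 with slide as a block, and 24 with slide and run as blocks. Vegfa with TNFα was also lost without the filter on dim probes (q = 0.0951) and with the 2 groups alone (q = 0.128), and Pdgfb with TNFα with the 2 groups alone (q = 0.0839). Vegfb with TGFß1 was lost without the filter (q = 0.0528) and with the 2 groups alone (q = 0.0525). Angptl4 with TGFß1 was called under quantile normalization (-0.81, q = 0.0192). Over all probes, the number called was 2986 with TNFα, 5283 with TGFß1, 74 with IL-1β and 19 with IL-6. It was 37 with IL-6 when the slide was a block, 4513, 320 and 228 with TNFα, IL-1β and IL-6 when slide and run were, 11 and 0 with IL-1β and IL-6 when 2 groups were fitted, and 9 with IL-6 without the filter. With TGFß1 it was 3482 under normexp. Signal over background limits Pdgfb, measured on 7 of 15 arrays, whose difference with TNFα went from 1.46 to 0.46 with the background correction.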
